A study of Mus musculus with 6 samples.

Results

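The genes described here encode 10 mitochondrial enzymes and carriers that burn fatty acids: *Cpt1a*, *Slc25a20* and *Cpt2* of the carnitine shuttle, the acyl-CoA dehydrogenases *Acadvl*, *Acadl*, *Acadm* and *Acads*, *Hadha* and *Hadhb* of the trifunctional protein, and the thiolase *Acaa2*. They were chosen by name for their place in the pathway, but with earlier results of these data known. Each of the 10 symbols matched 1 of the 25403 genes listed in the count table. The libraries came from poly(A) RNA of whole livers of 6 mice, 3 labelled wild-type C57BL6/J (WT) and 3 labelled *Themis* KO (*Themis*-KO). All 6 had received the same MASH diet, named AMYLIN liver NASH diet in the labels, in which fat gave 40% and fructose 20% of the energy and cholesterol made up 2%, for 3 months from an age of 10 to 12 weeks. *Themis*, best known as a signaling protein of developing T cells, was inactivated in the whole body, so hepatocytes and immune cells both lacked it by the label. The sex of the 6 mice is not given in the labels. The paper's legend to the figure with these RNA data names male mice, while its Methods mention livers of both sexes for gene expression.

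Long-chain fatty acids cannot cross the inner mitochondrial membrane as CoA esters. CPT1A on the outer membrane transfers them to carnitine, the carrier SLC25A20 moves the acylcarnitine across the inner membrane, and CPT2 returns the acyl group to CoA in the matrix. Each turn of β-oxidation then takes 4 reactions: a dehydrogenase chosen by chain length, hydration, a second dehydrogenation and thiolytic cleavage, which releases acetyl-CoA. In liver much of this acetyl-CoA becomes ketone bodies during fasting. Transcription of many of these genes is raised by PPARA, a nuclear receptor that binds fatty acids and pairs with RXRA.

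The libraries held from 20679642 to 25649767 counts on genes. *Themis* itself, in CPM (read counts scaled to the library total, here after TMM normalization), stood at 8.07, 25.6 and 12.0 in the WT libraries and at 8.62, 7.74 and 9.96 in the *Themis*-KO libraries, in replicate order. Its log2 fold change was −0.79 (SE 0.38 and adjusted p = 0.199, edgeR). The inactivated gene thus did not tell the labels apart, and each direction given here rests on the labels. WT replicates 1 and 2 also stood apart: *Gm28438*, a nuclear copy of mitochondrial *mt-Nd3*, took 96.6% and 96.8% of what both genes gave in CPM in them and 2.20% to 3.26% in the other 4 livers. This split is called the mitochondrial type. The labels name no separate litters or cages, so p-values measure the spread between these 6 livers alone. In whole liver, fewer hepatocytes and less of an RNA per hepatocyte cannot be told apart.

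All 10 genes were abundant in every liver. Their estimated counts ranged from 2450 for *Slc25a20* to 18438 for *Cpt1a*, and by mean CPM each lay above between 92.0% and 98.9% of the 14496 genes tested. Together they took 0.385% ± 0.022 of all counts in livers labelled WT and 0.373% ± 0.012 in those labelled *Themis*-KO (SD, n = 3 each).

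None of the 10 genes passed an adjusted p of 0.05 in livers labelled *Themis*-KO against livers labelled WT, in either direction. Over all genes tested, 4.14% were called lower and 4.97% higher by edgeR's quasi-likelihood test. At an unadjusted p under 0.05, 3 of the 10 were lower (*Cpt1a*, *Cpt2* and *Acaa2*) and 0 higher, where 13.9% of all genes were lower. The share of all genes that were higher at that p was 16.8%. DESeq2 called 2 of the 10 lower (*Cpt1a* and *Acaa2*), beside 7.12% of all genes lower and 8.02% higher. At an adjusted p under 0.1, edgeR gave 2 lower (*Cpt1a* and *Acaa2*), beside 9.08% of all genes, and without a filter on low counts 1 lower (*Cpt1a*) at 0.05, beside 3.81%. By CPM after TMM, every liver labelled *Themis*-KO lay below every liver labelled WT for 4 of the 10, which held for 16.9% of all genes. For none of the 10 did they lie above, which held for 17.7%. These counts depend on the scaling. TMM factors were 0.934 to 0.989 in libraries labelled WT and 1.02 to 1.07 in those labelled *Themis*-KO. With total counts alone, the groups overlapped for *Cpt2* and *Acadvl*. Every liver labelled *Themis*-KO then lay above every liver labelled WT for *Acadl*, *Hadha* and *Hadhb*. The log2 fold change was negative for 7 of the 10, against 49% of all genes, and its median was −0.15, against 0.0095 over all genes. Scaled by total counts alone, the median of all genes moved to 0.15 and that of the 10 to −0.0074, so that relative to all genes the 10 stood at −0.15 under either scaling. The number of calls changed with single livers. Without *Themis*-KO replicate 3, edgeR called 3 of the 10 lower, beside 13.8% of all genes, against 4.14% with no liver left out. With the mitochondrial type as a covariate, which leaves 1 liver labelled WT to compare within a type, the median of the 10 was −0.071. That of all genes was 0.020.

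**Figure D1:**
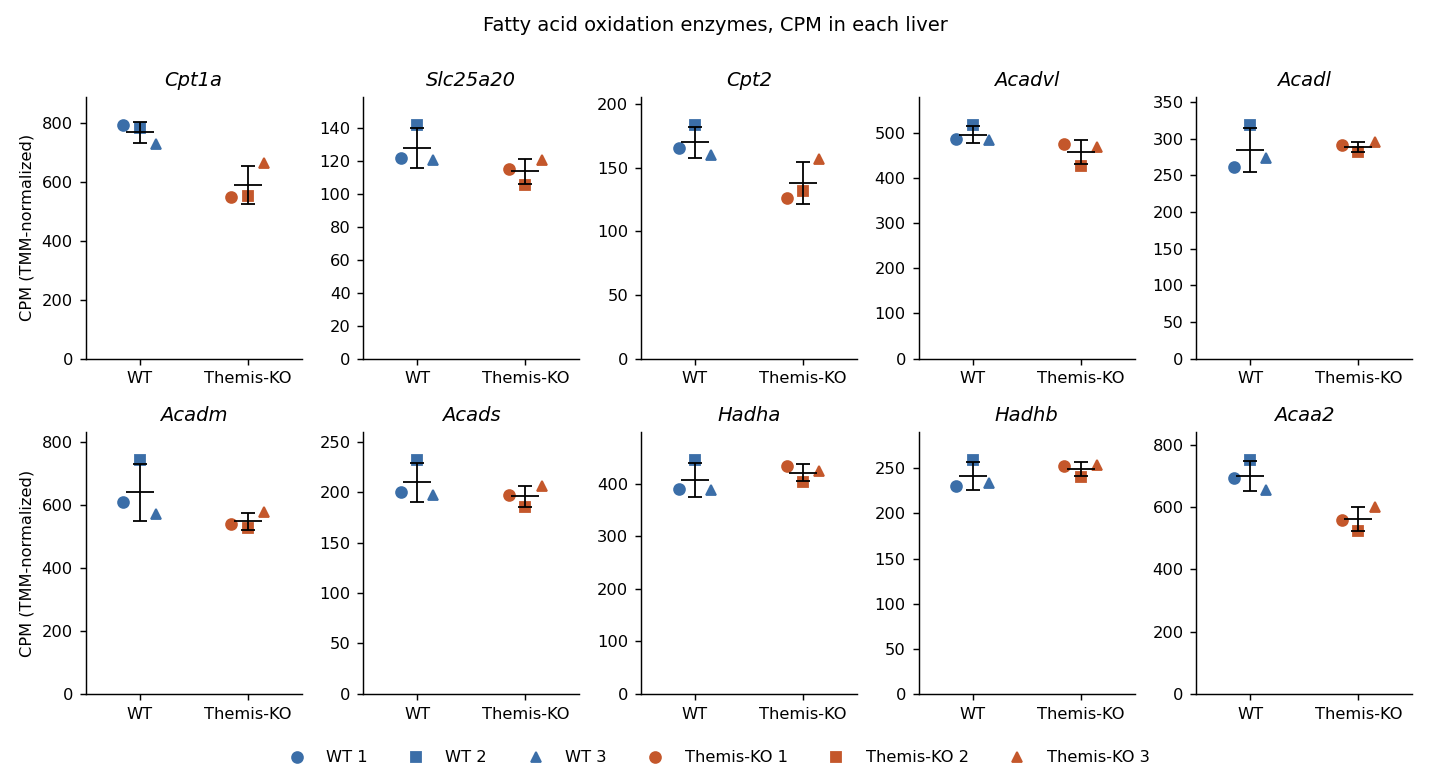
CPM (TMM-normalized, linear axis from 0) of each of the 10 genes in the 3 livers labelled WT (blue) and the 3 labelled *Themis*-KO (orange), with marker shape giving the replicate number and bars the mean and SD (n = 3). The groups are apart for *Cpt1a*, *Cpt2*, *Acadvl* and *Acaa2* and overlap for the other 6 genes.

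In the carnitine shuttle, the groups were apart after TMM for both transferases, lower in livers labelled *Themis*-KO. They overlapped for the carrier between them. None of the 3 genes passed the adjusted p with edgeR. *Cpt1a* (ENSMUSG00000024900) encodes the liver form of carnitine palmitoyltransferase 1, the step that malonyl-CoA inhibits, and sits on chromosome 19 of GRCm38 (forward strand, 3322334 to 3385733). In replicate order, livers labelled WT had CPM values of 794, 784 and 727, and livers labelled *Themis*-KO had 550.0, 553 and 665. The groups did not overlap, with means of 768 ± 36.3 and 589 ± 65.3 (SD, n = 3 each), and *Themis*-KO replicate 3 was the nearest to the livers labelled WT. The log2 fold change was −0.38 (SE 0.11, 95% interval −0.63 to −0.14), with an unadjusted p of 0.00714 and an adjusted p of 0.0605 from edgeR. DESeq2 gave an adjusted p of 0.00989, and edgeR without *Themis*-KO replicate 3 gave −0.49 (adjusted p = 0.00988).

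*Cpt2* (ENSMUSG00000028607), which rebuilds acyl-CoA in the matrix, sits on chromosome 4 (reverse strand, 107903981 to 107923610). Its CPM was 165, 184 and 160.2 in livers labelled WT and 126, 131 and 157 in livers labelled *Themis*-KO, in replicate order. Again the groups did not overlap, but WT replicate 3 and *Themis*-KO replicate 3 were close. The log2 fold change was −0.30 (SE 0.11, 95% interval −0.55 to −0.046, unadjusted p = 0.0262, adjusted p = 0.115 from edgeR), and without *Themis*-KO replicate 3 it was −0.41 (adjusted p = 0.018). *Slc25a20* (ENSMUSG00000032602), the carnitine-acylcarnitine carrier between both transferases, sits on chromosome 9 (forward strand, 108662088 to 108684641). Its CPM was 122, 142 and 120.1 in livers labelled WT and 115, 105 and 120.2 in livers labelled *Themis*-KO. The groups met at WT replicate 3 and *Themis*-KO replicate 3, and the log2 fold change was −0.17 (SE 0.099 and adjusted p = 0.271).

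The 4 acyl-CoA dehydrogenases, which take over from one another as the chain shortens, had log2 fold changes between −0.23 and 0.021, and none had an unadjusted p under 0.05. *Acadvl* (ENSMUSG00000018574), for very long chains, is bound to the inner membrane and sits on chromosome 11 (reverse strand, 70010183 to 70015411). Its CPM was 488, 519 and 484 in livers labelled WT and 475, 427 and 471 in livers labelled *Themis*-KO, and the log2 fold change was −0.12 (SE 0.088 and adjusted p = 0.385). The groups were apart by a narrow margin, between WT replicate 3 and *Themis*-KO replicate 1. With libraries scaled by total counts alone its log2 fold change was 0.019 and the groups overlapped. Of the exon bases of *Acadvl*, 42.9% overlap exons of *Dvl2* on the opposite strand, and the sources used here do not state whether strand was used in counting. *Dvl2* had 1142 counts over the 6 livers against 64853 for *Acadvl*.

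*Acadl* (ENSMUSG00000026003), the long-chain enzyme, sits on chromosome 1 (reverse strand, 66830839 to 66863277). Its CPM was 262, 319 and 274 in livers labelled WT and 291, 281 and 295 in livers labelled *Themis*-KO, so the *Themis*-KO values lay inside the WT range after TMM. They lay above it with total counts alone. After TMM the log2 fold change was 0.021 (SE 0.098, 95% interval −0.21 to 0.25, adjusted p = 0.902). *Acadm* (ENSMUSG00000062908), the medium-chain enzyme, sits on chromosome 3 (reverse strand, 153922357 to 153944632). Its CPM was 608, 742 and 571 in livers labelled WT and 538, 527 and 577 in livers labelled *Themis*-KO. Here WT replicate 2 was far above the other 5 livers and the groups overlapped, with a log2 fold change of −0.23 (SE 0.12, 95% interval −0.50 to 0.045, adjusted p = 0.228). *Acads* (ENSMUSG00000029545), the short-chain enzyme, sits on chromosome 5 (reverse strand, 115110299 to 115119346). Its CPM was 200.1, 232 and 197 in livers labelled WT and 197, 185 and 206 in livers labelled *Themis*-KO, with overlap and a log2 fold change of −0.098 (SE 0.096 and adjusted p = 0.517). Scaled by total counts alone, *Acads* was at 0.041.

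*Hadha* and *Hadhb*, whose products form the α and β subunits of the mitochondrial trifunctional protein, had nearly equal CPM in both groups after TMM. The complex carries out the last 3 reactions of each turn on long chains, with hydratase and dehydrogenase activity on the α subunit and thiolase activity on the β subunit. *Hadha* (ENSMUSG00000025745), on chromosome 5 (reverse strand, 30118304 to 30155162), showed a CPM of 391, 445 and 388 in livers labelled WT and 435, 403 and 424 in livers labelled *Themis*-KO, with a log2 fold change of 0.044 (SE 0.092, 95% interval −0.17 to 0.26, adjusted p = 0.772). *Hadhb* (ENSMUSG00000059447), on the same chromosome (forward strand, 30155248 to 30184593), showed a CPM of 231, 259 and 234 and of 252, 240.1 and 254, with a log2 fold change of 0.045 (SE 0.085, 95% interval −0.15 to 0.24, adjusted p = 0.750). After TMM, in both genes WT replicate 2 was the highest liver and WT replicates 1 and 3 the lowest, and the *Themis*-KO values fell between them. With libraries scaled by total counts alone, every liver labelled *Themis*-KO lay above every liver labelled WT, and both genes changed by 0.18 on the log2 scale. Relative to the median of all genes, both stood at 0.036 with total counts, beside 0.034 and 0.035 with TMM. A pseudogene of the β subunit, *Hadhb-ps*, had 247 counts over the 6 livers against 33291 for *Hadhb*.

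*Acaa2* (ENSMUSG00000036880) encodes the mitochondrial thiolase that acts on medium and long chains and sits on chromosome 18 (forward strand, 74779197 to 74806208). Its CPM was 693, 750.2 and 655 in livers labelled WT and 558, 524 and 601 in livers labelled *Themis*-KO. The groups did not overlap, with means of 699 ± 48.1 and 561 ± 38.8 (SD, n = 3 each). The log2 fold change was −0.32 (SE 0.098, 95% interval −0.54 to −0.092), with an unadjusted p of 0.0119 and an adjusted p of 0.0764 from edgeR. DESeq2 gave an adjusted p of 0.0222, and edgeR without *Themis*-KO replicate 3 gave −0.39 (adjusted p = 0.0292).

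**Figure D2:**
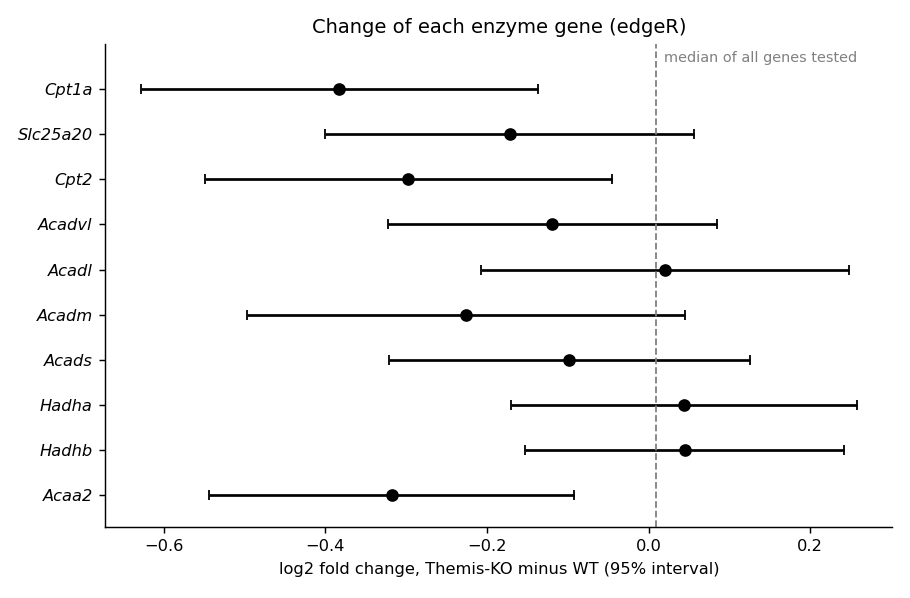
Log2 fold change of each gene (points, livers labelled *Themis*-KO minus livers labelled WT, edgeR) with its 95% interval (bars), and the median of all genes tested (dashed line). The intervals of *Cpt1a*, *Cpt2* and *Acaa2* lie below 0 before adjustment over all genes, and those of the other 7 include it.

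Across the pathway, single livers moved most of the genes together. By CPM after TMM, WT replicate 2 was the highest of the 6 livers for 9 of the 10 genes, and *Cpt1a* was the exception, highest in WT replicate 1. *Themis*-KO replicate 2 was the lowest liver for 5 genes, WT replicate 1 and *Themis*-KO replicate 1 for 2 each and WT replicate 3 for 1. These ranks depend on the scaling of the libraries. A ratio of 2 genes within a library removes such shared movement and does not depend on how libraries are scaled, so 4 ratios between partners in the pathway were compared. On the log2 scale *Hadha* to *Hadhb* was 0.76, 0.78 and 0.73 in livers labelled WT and 0.78, 0.75 and 0.74 in livers labelled *Themis*-KO. The means of both groups were 0.757, and the exact two-sided permutation test gave p = 1. Among the 45 pairs of the 10 genes, this ratio varied least over the 6 livers, with an SD of 0.023 on the log2 scale beside 0.024 from counting error alone. The pair was thus as steady as the depth could show. *Acadl* to *Hadhb* came next with an SD of 0.040, and *Cpt1a* to *Hadha* varied most, with 0.27 or 14.0 times its counting error.

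*Acadl* to *Acadm*, the long-chain to the medium-chain enzyme, was −1.22, −1.22 and −1.06 in livers labelled WT and −0.89, −0.91 and −0.97 in livers labelled *Themis*-KO on the log2 scale. All 3 livers labelled *Themis*-KO lay above all 3 labelled WT, with a difference of 0.24. The exact two-sided permutation test gave p = 0.1, the smallest that 3 livers against 3 allow, and an adjusted p of 0.4 over the 4 ratios. *Cpt1a* to *Cpt2* differed by −0.086 (exact permutation p = 0.2, adjusted p = 0.4) and *Acadvl* to *Acads* by −0.025 (exact permutation p = 0.8, adjusted p = 1), and both overlapped between the groups. Another 2 ratios were chosen after their values were seen and were not tested. *Acaa2* to *Hadhb* was 1.59, 1.53 and 1.48 in livers labelled WT and 1.14, 1.13 and 1.24 in livers labelled *Themis*-KO. *Cpt1a* to *Hadha* was 1.02, 0.82 and 0.91 against 0.34, 0.46 and 0.65. Neither ratio overlapped between the groups, so *Cpt1a* and *Acaa2* were lower relative to the trifunctional protein genes of the same library in every liver labelled *Themis*-KO.

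**Figure D3:**
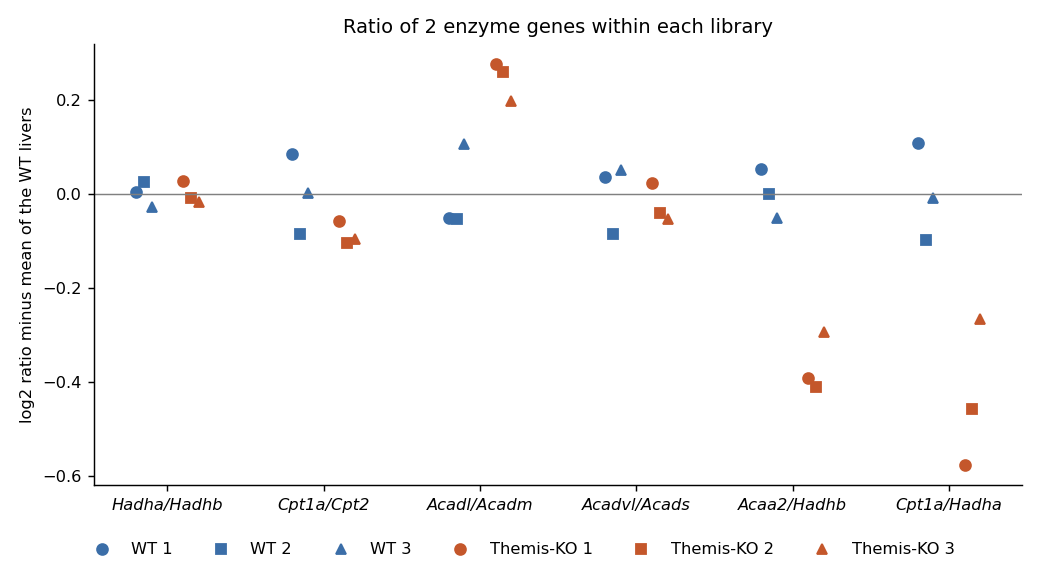
Log2 ratio of 2 genes within each library, minus the mean of the 3 livers labelled WT, for the 4 ratios tested and, at the right, the 2 chosen after their values were seen. *Hadha*/*Hadhb* stays within a range of 0.056 over all 6 livers, while *Acaa2*/*Hadhb* and *Cpt1a*/*Hadha* lie lower in all 3 livers labelled *Themis*-KO.

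*Hadha* and *Hadhb* stand head to head on chromosome 5, with 86 bases between their annotated starts in GENCODE and 273 between those in RefSeq. The stretch between them outside annotated exons is shown because both genes start from its ends and their ratio was the steadiest of the pathway. The stretches before *Cpt1a* and *Cpt2* are shown beside it because these shuttle genes had no overlap between the groups after TMM. Capitals mark GC boxes (GGGCGG, or CCGCCC on the other strand) and nuclear receptor half-sites (AGGTCA, or TGACCT). Each line reads 5′ to 3′ in GRCm38.p6, as plus strand of chr5:30155163-30155247 for *Hadha*-*Hadhb*, plus strand of chr19:3323051-3323284 for *Cpt1a* and minus strand of chr4:107923611-107923839 for *Cpt2*, read from RefSeq. The *Cpt1a* stretch precedes its RefSeq start and lies outside exons but inside the longer span that GENCODE gives the gene.
Hadha-Hadhb: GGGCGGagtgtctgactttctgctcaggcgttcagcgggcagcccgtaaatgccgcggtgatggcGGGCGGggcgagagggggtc
Cpt1a: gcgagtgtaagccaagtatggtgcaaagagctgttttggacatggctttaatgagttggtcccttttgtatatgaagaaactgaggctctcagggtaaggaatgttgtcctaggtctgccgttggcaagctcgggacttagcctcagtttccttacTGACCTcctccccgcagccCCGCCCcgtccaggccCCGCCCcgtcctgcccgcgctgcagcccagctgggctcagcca
Cpt2: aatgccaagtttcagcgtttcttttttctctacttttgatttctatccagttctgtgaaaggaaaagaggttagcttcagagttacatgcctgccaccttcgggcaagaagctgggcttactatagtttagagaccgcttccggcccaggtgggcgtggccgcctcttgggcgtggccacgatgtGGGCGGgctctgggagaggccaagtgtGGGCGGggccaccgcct
The stretch shared by *Hadha* and *Hadhb* had 85 bases, a GC content of 69.4% and 2 GC boxes. *Cpt1a* had 2 GC boxes and 1 half-site in 234 bases, and *Cpt2* had 2 GC boxes in 229.

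The full windows of 300 bases, 250 before and 50 after each RefSeq start, were found for 9 of the 10 genes (not *Acaa2*) and searched on both strands. The GC box was in 7 of the 9 windows and in 35.7% of the 32851 windows of all genes. The windows of *Hadha* and *Hadhb*, both among the 7, share most of their bases and are not independent. The half-site was in 3 of 9 (*Acadm*, *Acadvl* and *Cpt1a*) and in 16.3%, and CCAAT was in 1 of 9 (*Cpt1a*) and in 37.4%. The half-site repeated in the same direction with any 1 base between the copies, the form that PPARA with RXRA binds, was in 0 of 9 and in 0.0396% of all windows, and TATAAA was in 0 of 9 and in 13.6%. A match describes these letters and is no evidence of binding. Only these exact letters within 300 bases were searched. The repeat was so rare in all windows that its 0 of 9 cannot tell these genes from others.

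Per kilobase of the principal transcript, the levels spanned a wide range. *Acaa2* was highest with a mean CPM per kilobase of 416 over the 6 livers, followed by *Acadm* with 290.1, *Acadvl* with 220.2, *Cpt1a* with 157, *Acadl* with 149.7, *Hadhb* with 119.7, *Acads* with 108, *Hadha* with 103, *Slc25a20* with 67.7 and *Cpt2* with 64.9. Neighbours in this order kept their order in all 6 livers except for *Cpt1a* over *Acadl*, *Acads* over *Hadha* and *Slc25a20* over *Cpt2*, which held in 4 of 6 livers each. The order depends on the length used. Per kilobase of all annotated exons together, *Acadvl* stood above *Acadm*, and *Slc25a20* rather than *Cpt2* was lowest.

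Around these 10 genes, 6 further lists with 81 genes were compared in the same fit: other mitochondrial oxidation genes, regulators, peroxisomal β-oxidation, ketogenesis, other PPARA targets and mitochondrial reference genes. Of the 81, 10 were called lower and 0 higher, beside 4.14% and 4.97% of all genes. At an unadjusted p under 0.05, 37 were lower and 4 higher, beside 13.9% and 16.8% of all genes. With total counts alone, edgeR called 6 of the 81 lower and 2 higher, beside 387 lower and 1447 higher over all genes. At an unadjusted p under 0.05, 13 of the 81 were then lower and 8 higher. The number of calls changed with single livers, among the 81 and over all genes. Leaving out WT replicate 1 gave 0 calls lower among the 81, and so did leaving out replicate 1 or 2 of *Themis*-KO (27, 20 and 18 at an unadjusted p under 0.05). Over all genes these fits called 32, 12 and 41 lower, against 600 with no liver left out. The median log2 fold change of each of the 6 lists stayed negative in them. Without WT replicate 2, 1 was called, without WT replicate 3, 7, and without *Themis*-KO replicate 3, 33 were lower and 3 higher. Over all genes these fits called 57, 369 and 2039 lower and 19, 481 and 2228 higher. With the mitochondrial type as a covariate, 1 liver labelled WT is left to compare within a type, so only medians are given. They ran from −0.26 for the regulators to −0.040 for ketogenesis. DESeq2 called 19 lower and 2 higher, beside 7.12% and 8.02% of all genes.

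Of 21 other genes of mitochondrial oxidation, 2 fell and 0 rose, and their median log2 fold change was −0.25. *Acsl1*, the main acyl-CoA synthetase of the liver, which activates fatty acids ahead of the shuttle, had a CPM of 1241, 1304 and 1153 in livers labelled WT and 746, 619 and 682 in livers labelled *Themis*-KO. It was lower in 3 of 3 livers labelled *Themis*-KO, with a log2 fold change of −0.85 (SE 0.11 and adjusted p = 0.0115 from edgeR). *Mut*, the methylmalonyl-CoA mutase that finishes propionyl-CoA breakdown, had a CPM of 198, 203 and 184 against 138, 138 and 160.0, with a log2 fold change of −0.42 (SE 0.093 and adjusted p = 0.0386). The groups were apart for 12 of the 21 with lower and for 2 with higher values in livers labelled *Themis*-KO, beside 16.9% and 17.7% of all genes. Among the 12 regulators 3 fell and 0 rose, with a median of −0.30. *Ppara* had a CPM of 129, 118 and 122 against 80.0, 78.8 and 99.1, and its log2 fold change was −0.52 (SE 0.11 and adjusted p = 0.0345). *Rxra*, its partner, changed by −0.42 (SE 0.088 and adjusted p = 0.0351). *Mlycd*, which breaks down malonyl-CoA, the inhibitor of CPT1A, changed by −0.395 (SE 0.080 and adjusted p = 0.0322).

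In the peroxisome, which shortens very long chains before they reach mitochondria, 3 of 14 genes fell and 0 rose, with a median of −0.23. *Decr2*, a dienoyl-CoA reductase, had CPM values of 219, 265 and 222 in livers labelled WT and 148, 155 and 175 in livers labelled *Themis*-KO, without overlap, and changed by −0.56 on the log2 scale (SE 0.11 and adjusted p = 0.0307), and *Acaa1a*, a peroxisomal thiolase, by −0.49 (SE 0.11 and adjusted p = 0.0402). *Acaa1a* and its close copy *Acaa1b* can share reads, so the value of *Acaa1a* is uncertain. None of the 4 ketogenesis genes was called, and 0 had an unadjusted p under 0.05 with edgeR or an adjusted p under 0.05 with DESeq2. All 4 were negative, with a median of −0.16.

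The 8 other PPARA targets did not share 1 direction. *Cyp4a10*, a fatty acid ω-hydroxylase, fell, with a CPM of 291, 274 and 159 against 92.4, 101 and 119 and a log2 fold change of −1.21 (SE 0.22 and adjusted p = 0.0266). *Acot1*, a cytosolic acyl-CoA thioesterase, fell by 0.59 on the log2 scale (SE 0.14 and adjusted p = 0.0416). Both belong to families of close copies that can share reads. *Pdk4* and *Plin2* were picked after their values were seen and did not pass the test with edgeR. *Pdk4*, which restrains glucose oxidation, had a CPM of 13.7, 10.98 and 21.7 against 149, 85.2 and 17.2, so the high values were in 2 of 3 livers labelled *Themis*-KO (log2 fold change 2.44, SE 0.67, adjusted p = 0.0596). *Plin2*, a lipid droplet coat protein, had a CPM of 792, 942 and 1059 against 1644, 1548 and 1095 (log2 fold change 0.62, SE 0.18, adjusted p = 0.0639).

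The 22 mitochondrial reference genes, enzymes of the citric acid cycle, the respiratory chain and import, had 0 calls by edgeR and 1 by DESeq2. Their median was −0.18, close to that of the 10 oxidation genes, and 8 were lower at an unadjusted p under 0.05, beside 13.9% of all genes. *Fh1* was at −0.41 (SE 0.12 and adjusted p = 0.071) and *Ndufs1* at −0.30 (SE 0.098 and adjusted p = 0.0868).

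**Figure D4:**
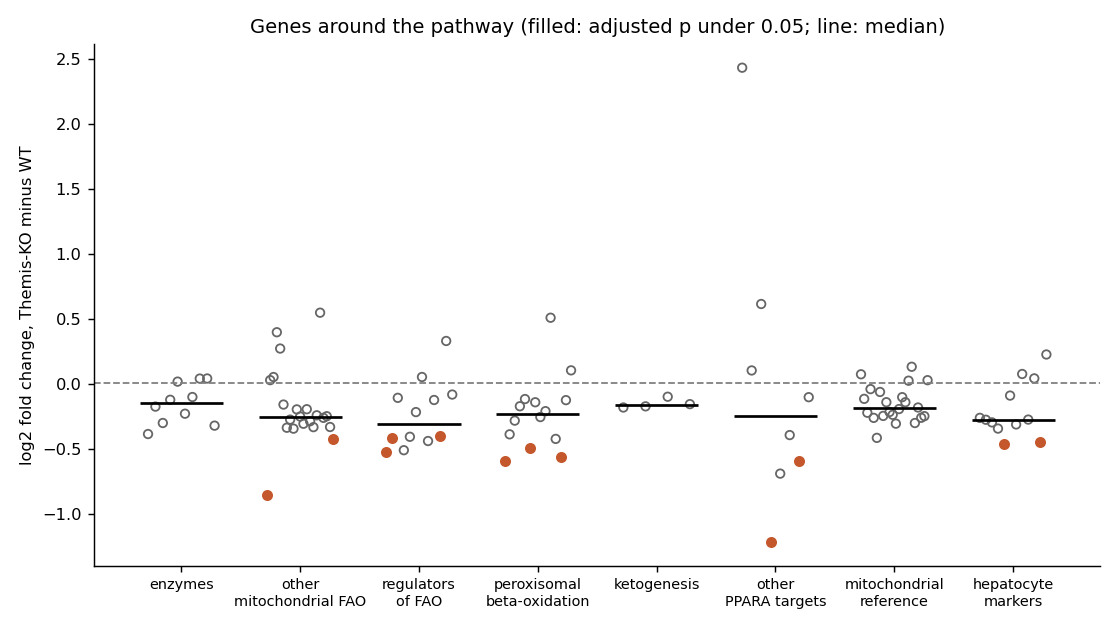
Log2 fold change (livers labelled *Themis*-KO minus livers labelled WT) of each gene in the 10 oxidation genes, the 6 lists around them and the hepatocyte markers, with filled orange points for an adjusted p under 0.05, a black line for each list's median and a dashed line for the median of all genes. The medians of the 8 groups lie between −0.30 and −0.15, and the filled points are 10 genes of the 6 lists and 2 hepatocyte markers.

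Markers of the cell types of whole liver were read beside these values. All 12 hepatocyte markers were detected in every liver, with a summed CPM of 76601 to 84006 in livers labelled WT and of 69321 to 72021 in livers labelled *Themis*-KO. *Alb* had a mean CPM of 41656 ± 1701 and 34830.3 ± 2135 (SD, n = 3 each) and *Trf* one of 9982 ± 478 and 10546 ± 438. Of the 12, 2 were called lower and 0 higher, and the median log2 fold change was −0.27. The 11 hepatic stellate cell (HSC) markers summed to 451 to 515 CPM and 688 to 738 CPM, with 6 called higher. The 8 cholangiocyte markers summed to 217 to 266 CPM and 464 to 695 CPM, with 2 called higher. Most of the cholangiocyte sum was *Spp1*, with a mean CPM of 160 and 434. The groups were apart for 5 of these 8 markers with higher and for 1 with lower values in livers labelled *Themis*-KO, beside 17.7% and 16.9% of all genes. The 12 macrophage markers summed to 491 to 840.3 CPM and 824 to 1037 CPM, with 1 called higher. The 8 endothelial markers summed to 223 to 240.0 CPM and 253 to 275 CPM, with 1 called higher. The 8 T cell markers summed to 5.08 to 6.11 CPM and 3.44 to 8.07 CPM. Of the 6 tested, 1 was called lower and 0 higher: *Cd4*, with a CPM of 2.02, 1.05 and 1.81 against 0.59, 0.52 and 0.66 and a log2 fold change of −1.46 (SE 0.32 and adjusted p = 0.0386). The 5 B cell markers summed to 3.07 to 7.29 CPM and 1.98 to 5.80 CPM with 0 calls by edgeR and DESeq2 and 0 at an unadjusted p under 0.05, and no marker was at 0 in any liver. *Col3a1* and *Dcn* of the stellate list rose by 0.94 and 0.395 on the log2 scale (adjusted p = 0.00936 and 0.0423), and *Spp1* of the cholangiocyte list by 1.44 (adjusted p = 0.0131). The number of these marker calls changed with single livers, and so did the number over all genes. With no liver left out, 600 genes were called lower and 721 higher. Without replicate 1 these totals were 32 and 12 for WT and 12 and 8 for *Themis*-KO. Without replicate 2 they were 57 and 19 for WT and 41 and 27 for *Themis*-KO. Without WT replicate 1, 0 hepatocyte markers were called lower and 0 HSC, cholangiocyte, macrophage or endothelial markers higher. Without *Themis*-KO replicate 1 the same counts were 0 except for 1 cholangiocyte marker. Without WT replicate 2 or without *Themis*-KO replicate 2, 2 HSC markers and 0 hepatocyte, macrophage and endothelial markers were called, and without WT replicate 3, 8 macrophage markers were called higher. *Cd4* was not called without any of WT replicates 1, 2 and 3 or *Themis*-KO replicates 1 and 2. With upper quartile or total-count scaling 0 hepatocyte markers were called lower, and with total counts 1 was called higher. With the mitochondrial type as a covariate, 1 liver labelled WT is left to compare within a type, so no marker calls are given for it. The part of the marker shifts in the values of the oxidation genes was not tested.

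As a value within each library, the mean log2 CPM of the 10 oxidation genes was set against that of the hepatocyte markers. The mean of the 10 was 8.37, 8.54 and 8.34 in livers labelled WT and 8.26, 8.19 and 8.35 in livers labelled *Themis*-KO, which overlapped. That of the hepatocyte markers was 11.66 ± 0.098 and 11.46 ± 0.024 (SD, n = 3 each), without overlap after TMM. With total counts alone the hepatocyte markers overlapped between the groups. Minus the hepatocyte markers, the 10 genes stood at −3.40, −3.09 and −3.24 in livers labelled WT and at −3.20, −3.29 and −3.09 in livers labelled *Themis*-KO, a difference of 0.049 with overlap. Minus the mitochondrial reference genes the difference was 0.0044, again with overlap.

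**Figure D5:**
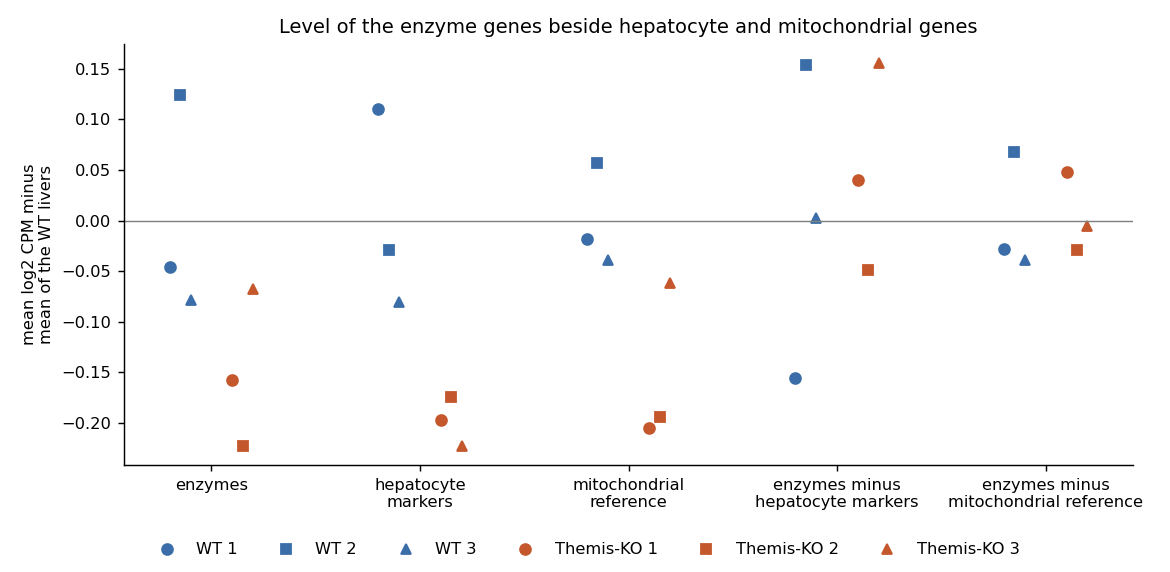
Mean log2 CPM of the 10 oxidation genes, the 12 hepatocyte markers and the 22 mitochondrial reference genes in each liver, and the first minus each of the other lists, all shown relative to the mean of the 3 livers labelled WT. After TMM, hepatocyte markers and mitochondrial reference genes lie lower in all 3 livers labelled *Themis*-KO, while both differences overlap between the groups. With total counts alone (not shown) both lists overlap between the groups too.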

How the data were processed

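Poly(A) RNA of 3 livers labelled WT and 3 labelled *Themis*-KO was sequenced. Per the submitters' processing notes and the Methods, the authors trimmed reads with cutadapt 2.3, mapped them to GRCm38 with STAR 2.7.8a and assigned them with RSEM 1.3.3, and the deposited estimated counts, 1 per gene in each library, are not normalized and already whole numbers. RSEM divides reads that match several genes, so values of close copies depend on each other. The release of the annotation is not given in the sources used here. Coordinates came from GENCODE vM21, also on GRCm38.

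The test was edgeR 4.0.16 (limma 3.58.1, R 4.3.3). Low counts were left out by filterByExpr (10907 of 25403 genes, none of the 10), libraries were scaled by TMM, and glmQLFit and glmQLFTest were run on all 6 livers without covariates, with a biological coefficient of variation of 0.157. Benjamini-Hochberg adjustment covered all 14496 tested genes, and calls were made at 0.05. Each SE is the log2 fold change divided by the root of F. CPM carry no prior count; log2 CPM in ratios and means use a prior count of 2. Ratios were compared by exact two-sided permutation tests in scipy 1.17.1. The fits were also run on simulated counts, with changes larger than those of the 10 genes and 1 common dispersion. That run does not bear on changes as small as those of the 10. Figures were drawn with matplotlib 3.10.9.

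The 10 genes and all lists were chosen with earlier results of these data known, and the study itself displays *Cpt1a* and *Acadm* from these livers, so no count over them is independent support. Named genes are *Themis*, *mt-Nd3*, *Gm28438*, the 10, and from each list around them those with an adjusted p under 0.05 (at most 5), or, where none passed, the 2 with the largest change, and the 2 most abundant of each marker list: beside those in the text, *Anxa4* (mean CPM 57.4 and 73.1 in livers labelled WT and *Themis*-KO), *Cd5l* (134 and 218), *Lyz2* (73.9 and 121), *Stab2* (53.8 and 56.7), *Cdh5* (33.4 and 43.1), *Lck* (0.81 and 1.21) and *Cd79b* (1.04 and 1.19). A few genes within this rule are left unnamed here.

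Alternatives were RLE, upper quartile and total-count scaling, no low-count filter or a minimum of 10 counts per liver, the tool DESeq2 1.42.0, a replicate block, the mitochondrial type as a covariate, each liver left out, thresholds of an adjusted p of 0.1 and an unadjusted p of 0.05, and, for ratios and means, a prior count of 0.5.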

Additional observations from a re-analysis of the deposited data

How the results depend on the processing

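Over 14 alternatives, the log2 fold change of the 10 oxidation genes kept its direction and its side of the threshold in 129 of 140 values, crossed the threshold in 6 and changed sign in 5. The count of genes called lower among the 10 was 0 as reported, 1 without a filter on low counts (*Cpt1a*), 2 with DESeq2, 2 at an adjusted p under 0.1 and 3 at an unadjusted p under 0.05, and from 0 to 3 with each liver left out. *Acadvl* was at 0.019 and *Acads* at 0.041 with total counts alone, or −0.13 and −0.11 relative to the median of all genes. *Hadha* and *Hadhb* were at 0.18 with total counts alone, or 0.036 relative to that median. *Acadl* was at −0.039, −0.0089 and −0.010 without WT replicate 1, WT replicate 3 and *Themis*-KO replicate 3, and reached 0.11 without WT replicate 2 among the fits that leave out a liver, and 0.16 over all 14 alternatives. The log2 ratio *Hadha* to *Hadhb*, at −1.93e-05, was 1.21e-06 with total counts alone and from −0.014 to 0.012 with each liver left out, and *Acadvl* to *Acads* ran from −0.067 without WT replicate 2 to 0.000104 without WT replicate 3. The differences of the means from hepatocyte markers and mitochondrial reference genes moved by less than their spread.

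The number called lower among other mitochondrial oxidation genes, 2 as reported, was 1 with total counts alone and 6 with DESeq2. It was 8 at an adjusted p under 0.1 and 13 at an unadjusted p under 0.05 (and then 1 higher). With each liver left out it ran from 0 to 11. Among regulators, 3 as reported, it was 1 with total counts alone and 6 at an unadjusted p under 0.05 (and then 1 higher). With each liver left out, from 0 to 5 regulators were lower and 0 to 1 higher. Among peroxisomal genes, 3 as reported, the number called lower was 5 with DESeq2 and 7 at an unadjusted p under 0.05. With each liver left out it ran from 0 to 6. Among other PPARA targets, 2 as reported, it was 1 with total counts alone and from 0 to 4 with each liver left out. Of these targets, 2 were called higher with total counts alone, no filter, DESeq2, an adjusted p under 0.1 or an unadjusted p under 0.05. With each liver left out, from 0 to 2 were called higher. Among mitochondrial reference genes, 0 as reported, the number called lower was 1 with no filter and 1 with DESeq2. It was 3 at an adjusted p under 0.1, 8 at an unadjusted p under 0.05 and from 0 to 7 with each liver left out. With total counts alone, 0 reference genes were lower and 2 higher at an unadjusted p under 0.05 (edgeR), and their median was −0.0465. Over all genes, the number called lower ran from 12 to 2039 with each liver left out, against 600 as reported. No counts are given with the mitochondrial type, since that fit leaves 1 liver labelled WT to compare within a type. The causes were not tested. Of all genes called, 54.6% were higher with TMM and 78.9% with total counts alone.

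The paper describes the sequenced livers as paired between the genotypes but does not say what makes a pair. Deviations of same-numbered livers from their group means had correlations from −0.24 to 0.00028, and 0 of 3 WT livers matched their own number best. Deviations of 3 livers from their own mean depend on each other, so these values cannot decide whether the numbers pair the livers. With the replicate number as a block, 1 HSC marker and 0 markers of the other cell types were called, 0 of the 10 oxidation genes were called (2 at an unadjusted p under 0.05), and 0 of the other mitochondrial oxidation genes, 0 regulators, 0 peroxisomal genes and 0 other PPARA targets, with 22 lower and 3 higher of the 81 genes at an unadjusted p under 0.05. Over all genes this fit called 45 lower and 17 higher, against 600 and 721 without the block. With 3 livers a group, the spread between livers more than depth limits the fold changes of the 10 abundant oxidation genes. The coefficient of variation of 0.157 is 1 value common to all genes tested. Depth also limits the T and B cell markers with few counts and the ratio of *Hadha* to *Hadhb*.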
